A study of Xenopus laevis with 12 samples.

Results

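Rhombomere 1, the segment of the anterior hindbrain that gives rise to the cerebellum, was compared between Xenopus laevis tadpoles that had received barhl1 morpholino 1 (MO1) and tadpoles that had received a control morpholino. The comparison was defined by the sample titles: 4 MO1 libraries against 4 control libraries, 8 of the 12 libraries in the series, and the 4 libraries of barhl1 morpholino 2 were left out. All 8 libraries were labelled stage 41 and came from dissected rhombomere 1, described as cerebellar primordium. The labels name no transgene or mutant allele, so the groups differed by label in the injected morpholino only. The design text gives injection into the 2 dorsal blastomeres at the 4-cell stage, dissection at stage 42, 3 replicates per condition and 3 rhombomeres pooled in each. The labels, with stage 41 and 4 libraries per group, were followed. Neither source says whether the 4 libraries of a group came from separate clutches, so the p-values below measure the spread between these libraries, which may be technical in part.

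Barhl1 is a homeodomain transcription factor of the BarH family. In the developing cerebellum it is expressed in the lineage of the upper rhombic lip, a germinal zone whose progenitors require the factor Atoh1 and give rise to glutamatergic neurons, the cerebellar granule neurons above all. The submitters describe Barhl1 as a direct target of Atoh1 and as an inhibitor of T-cell factors, the DNA-binding partners of beta-catenin in Wnt signalling. A morpholino is a stable antisense oligonucleotide that blocks the translation or the splicing of its target RNA, and a block of translation need not change the amount of that RNA. The deposited gene IDs are not paired with names, so barhl1 itself, the lineage markers and the Wnt target genes are not reported, and the tissue label and the knockdown were not checked against marker genes. The results are therefore given by expression level, by library and for 4 IDs.

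Total counts ran from 23278184 to 28681144, and each library had at least 1 count in 32094 to 32960 of 44478 IDs. Of 6 measures of the libraries, none passed an adjusted threshold of 0.05 between the groups. The smallest Benjamini-Hochberg adjusted p was 0.400 (exact permutation test, two-sided, 4 against 4). The smallest p the design allows before adjustment is 0.0286. A single measure at that p would not pass after adjustment over 6, so the test could hardly have found a difference. The measure nearest to a difference was the share of counts in the 10 most abundant IDs of each library, 3.92% ± 0.272 in the control and 4.29% ± 0.248 with MO1 (SD, n = 4 each, exact permutation p = 0.0857). In the control this share was 4.28%, 3.97%, 3.72% and 3.70% in replicates 1 to 4, and with MO1 it was 4.37%, 4.41%, 3.92% and 4.45%. Control replicate 1 thus lay closer to the MO1 libraries, and MO1 replicate 3 lay among the controls.

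Overall expression placed 2 libraries nearer to the other group than to their own, and this touches each result below. Distance was measured as the median absolute difference of log2 CPM (counts scaled by library size with TMM factors, with a prior count of 2 on the log scale) over the 26156 genes tested. Control replicate 1 was on average 0.215 from the other controls and 0.161 from the MO1 libraries, and its nearest library was MO1 replicate 2 at 0.131. MO1 replicate 3 was on average 0.210 from the other MO1 libraries and 0.172 from the controls, and its nearest library was control replicate 2 at 0.148. Control replicates 2, 3 and 4 were 0.127 to 0.139 from each other and 0.203 to 0.296 from MO1 replicates 1, 2 and 4, with no overlap between these ranges. MO1 replicates 1, 2 and 4 were more spread, at 0.144 to 0.194 from each other. The 2 libraries were 0.192 from each other. Whether the labels of these 2 libraries are right was not tested, and each fold change and count below takes them as given. With all 8 libraries the mean distance was 0.175 within the control, 0.190 within MO1 and 0.211 between the groups. Without the 2 libraries it was 0.134, 0.170 and 0.248. They are the libraries most like the other group, so leaving them out widens this difference, and the gap given above, by construction.

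By distance, the separation of libraries grew sharper with expression level. Genes were split by their mean CPM over the 8 libraries into 5 levels: under 1 (2526 genes), 1 to 5 (5062), 5 to 20 (8009), 20 to 100 (8631), and 100 or more (1928). Under a mean CPM of 1, the mean distance was 0.514 within the control, 0.508 within MO1 and 0.523 between the groups, so the groups could hardly be told from their own spread at that depth. At a CPM of 100 or more, control replicates 2, 3 and 4 were 0.0683 to 0.0818 from each other, and control replicate 1 was 0.149 to 0.207 from them. Control replicate 1 was 0.0601 from MO1 replicate 2, the shortest of all 28 distances at this level, and 0.0838 from MO1 replicate 1. The next shortest was that of MO1 replicate 3 from control replicate 2, at 0.0634, whereas MO1 replicate 3 was 0.157 to 0.237 from the other MO1 libraries.

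**Figure D1:**
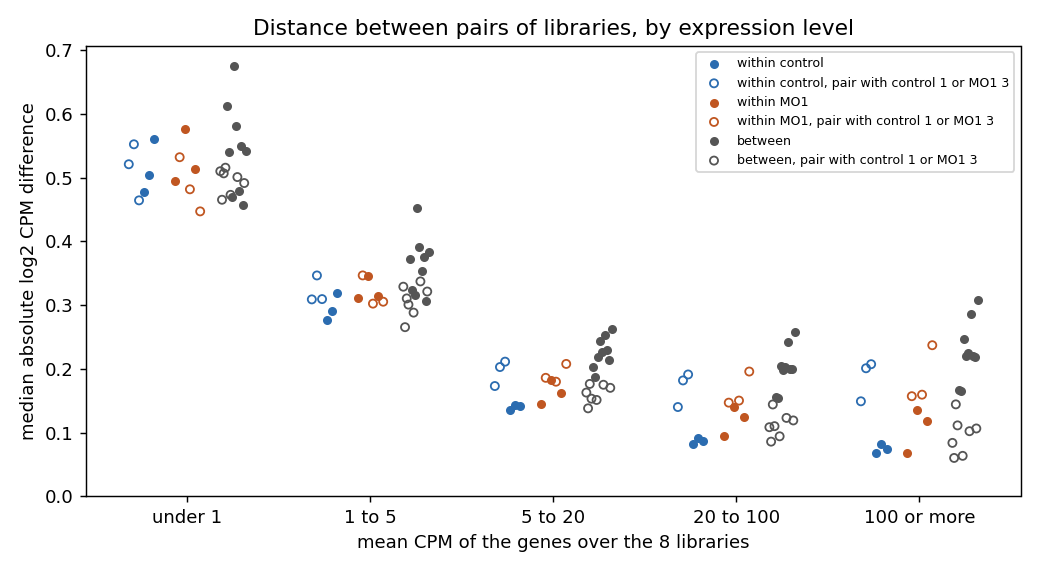
Median absolute difference of log2 CPM (vertical axis) for each pair of the 8 libraries, by mean CPM of the genes (horizontal axis). Open points are pairs that include control replicate 1 or MO1 replicate 3. At a CPM of 100 or more, the filled control pairs lie at 0.0683 to 0.0818 and the filled pairs between groups at 0.166 to 0.308, while open points of pairs between groups reach down to 0.0601.

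The question of the comparison is which transcripts change in the cerebellar primordium when barhl1 is depleted with MO1. In bulk RNA, fewer cells of a type and less RNA per cell cannot be told apart. Most fitted differences were small, and how many genes they took in depended on the libraries and the test. Of 26156 genes, 4019 (15.4%) had an unadjusted p under 0.05 in the edgeR quasi-likelihood test, 1966 higher with MO1 (7.52%) and 2053 lower (7.85%). On average 1307.8 would be expected if nothing differed. Genes do not vary independently between libraries, so this average does not say how far the number could stray without a difference. With 1 library left out the number ran from 2231 to 6818. After Benjamini-Hochberg adjustment 1 gene (0.00382%) passed a threshold of 0.05. DESeq2 called 527 (2.01%), 237 higher and 290 lower, and all 527 were among the 4019. limma-voom called 0, with 4057 at an unadjusted p under 0.05, and edgeR with all 12 libraries of the series in the fit called 0. The median absolute log2 fold change over all genes tested was 0.146, with a median standard error of 0.119.

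The gene that passed, XBXL10_1g20796, was at 1.34, 0.862, 0.959 and 1.16 CPM in control replicates 1 to 4 and at 6.75, 3.46, 4.35 and 4.81 CPM in MO1 replicates 1 to 4. It rose from 1.08 ± 0.214 to 4.84 ± 1.39 CPM (SD, n = 4 each), which is 2.16 on the log2 scale (SE 0.24; adjusted p of 0.0323 in edgeR). All 4 MO1 libraries lay above all 4 controls, and control replicate 1 lay with the controls here. The call was lost without control replicate 2, 3 or 4 (adjusted p = 0.168, 0.230 and 0.177) and without MO1 replicate 1 or 4 (0.0846 and 0.0763), with log2 fold changes of 1.96 to 2.20 in these 5 fits. It was also lost with limma-voom (adjusted p = 0.114) and with all 12 libraries in the fit (0.157). It was kept without control replicate 1 (0.00389).

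The second ID by p among those higher, XBXL10_1g19501, was at 2.90, 2.67, 2.67 and 2.99 CPM in the controls and at 8.14, 5.46, 5.94 and 10.6 CPM with MO1. The means were 2.81 ± 0.163 and 7.53 ± 2.33 CPM (SD, n = 4 each), or 1.42 as a log2 ratio (SE 0.20), which did not pass (adjusted p of 0.0873 in edgeR). The controls were close together and the MO1 libraries spread, with no overlap between groups.

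Among IDs that were lower, XBXL10_1g6248 had the smallest p. It was at 59.1, 69.4, 73.2 and 62.4 CPM in the controls and at 34.2, 44.1, 41.1 and 42.4 CPM with MO1, which gives a log2 ratio of -0.71 (SE 0.10; adjusted p of 0.0873 in edgeR). Every MO1 library lay below every control, with control replicate 1 the lowest of the controls. XBXL10_1g5915 was at 10.9, 10.3, 12.8 and 11.8 CPM in the controls and at 5.77, 6.41, 7.28 and 7.04 CPM with MO1, which gives a log2 ratio of -0.79 (SE 0.11; adjusted p of 0.0873 in edgeR). Here too the groups did not overlap, and MO1 replicate 3 was the MO1 library nearest to the controls. The 4 IDs were taken by their p in these libraries, which favors groups that do not overlap. The latter 3 passed in DESeq2 and in edgeR without control replicate 1, where their adjusted p was 0.0155, 0.00531 and 0.0127 in the order given.

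**Figure D2:**
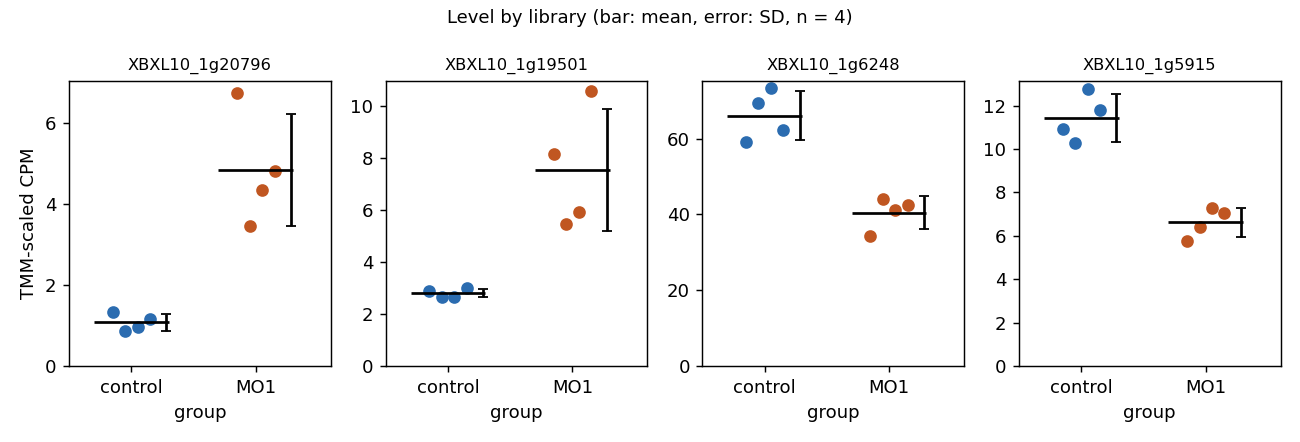
TMM-scaled CPM (vertical axes, each from 0) of the 4 IDs in each control and MO1 library; points are libraries, horizontal bars the means and error bars the SD (n = 4). In XBXL10_1g20796 the controls lie at 0.862 to 1.34 and the MO1 libraries at 3.46 to 6.75, and no panel shows an overlap of the groups.

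The median absolute log2 fold change was highest among genes of few reads. With all 8 libraries, the share of genes past the unadjusted threshold was highest among abundant genes. An absolute fold change also grows with its own error, so these medians do not rank the size of the change by level. Under a mean CPM of 1 the median absolute log2 fold change was 0.311, less than its median standard error of 0.396, and 190 of 2526 genes (7.52%) had an unadjusted p under 0.05. At 1 to 5 CPM these values were 0.213 and 0.231, with 578 genes (11.4%). At 5 to 20 CPM the median fold change of 0.133 exceeded the standard error of 0.119, and 1274 genes (15.9%) were under this p. At 20 to 100 CPM the median was 0.118 against 0.0909, with 1567 genes (18.2%). At 100 CPM or more it was 0.133 against 0.0888, with 410 genes (21.3%). This order of shares was lost in several fits. Without control replicate 2, 3 or 4 the share at 100 or more was 9.60%, 7.57% and 7.26%. At 5 to 20 CPM it was then 11.2%, 9.24% and 11.1%. Without MO1 replicate 1, 2 or 4 it was 10.5%, 11.0% and 10.3% at 100 or more, and 11.3%, 12.7% and 12.7% at 5 to 20. Counting error alone would give a median standard error of 0.256 at the lowest level and 0.0156 at the highest, so among abundant genes most of the error was spread between libraries and not counting error.

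Fold changes of at least 2 at an unadjusted p under 0.05 were found in 290 of the 26156 genes tested. Of these 211 were higher with MO1 and 79 lower. Most of them had few reads. There were 65 higher and 46 lower of 2526 genes under a CPM of 1, and 109 and 25 of 5062 at 1 to 5. At 5 to 20 there were 30 and 8 of 8009, and at 20 to 100 there were 7 and 0 of 8631. At 100 CPM or more there were 0 in either direction. Among all genes under this p, at any fold, the split was nearer to even at the low levels too. It was 103 higher and 87 lower under a CPM of 1, and 300 and 278 at 1 to 5. The 1274 genes at 5 to 20 CPM divided into 590 higher and 684 lower, with a median absolute log2 fold change of 0.339 among them. Such medians are over genes chosen by p, which asks a larger fold change where the error is larger. They do not rank the size of the change by level. At 100 CPM or more, 228 were higher and 182 lower, with a median of 0.250 among them. That order did not hold throughout: at this level leaving out control replicate 3 gave 52 higher and 94 lower, control replicate 4 gave 61 and 79, MO1 replicate 2 gave 105 and 108, and MO1 replicate 4 gave 99 each. Leaving out MO1 replicate 1 gave 79 higher and a larger number lower. The excess of gains at 2-fold or more turned without MO1 replicate 4, when 188 genes were higher and 251 lower, so its direction rested on that library. With any other single library left out, 173 to 286 were higher and 44 to 150 lower, and without control replicate 1 and MO1 replicate 3 together 300 and 199. Few transcripts were seen in 1 group only: 30 IDs had 0 counts in all 4 controls and counts in all 4 MO1 libraries, 15 had the reverse, and 0 of these had 10 or more counts in each library of the group that held them. The highest mean count of such an ID was 47.8 over the MO1 libraries and 92.5 over the controls, each with a library under 10 counts.

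The most abundant transcripts differed by small amounts. All 10 IDs with the highest mean CPM, each at 2834 CPM or more, had higher fitted values with MO1, with log2 fold changes of 0.096 to 0.22 and a median of 0.15, beside a median of -0.0031 over all genes tested. None of the 10 had an unadjusted p under 0.05 with all 8 libraries, and 6 did without control replicate 1 or without MO1 replicate 3. Of the 100 IDs with the highest mean CPM, 84 had higher and 16 lower fitted values, with 18 and 5 at an unadjusted p under 0.05. For comparison, 21.3% of all genes at 100 CPM or more and 15.4% of all genes tested were under this p. The shares of these transcripts in a library depend on one another, and counts are relative to the library's total.

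**Figure D3:**
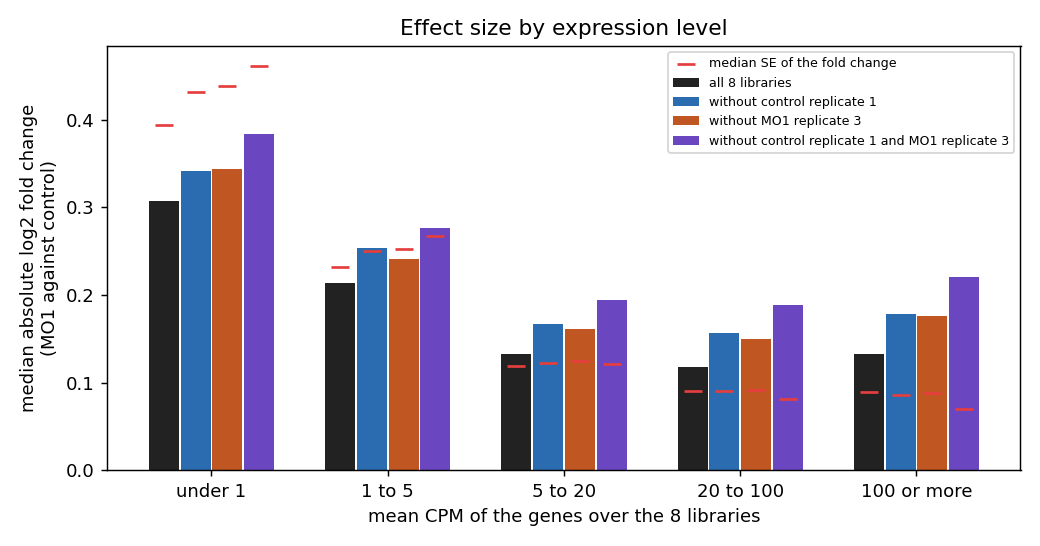
Median absolute log2 fold change of MO1 against control (bars) and the median standard error of the fold change (red marks) by mean CPM, over the 26067 genes tested in all 4 fits. At 100 CPM or more the bar rises from 0.133 with all 8 libraries to 0.220 without control replicate 1 and MO1 replicate 3, while the standard error goes from 0.0888 to 0.0702.

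The place of each library on the line between the groups was measured as a position. On it, 0 is the average of the remaining controls and 1 that of the remaining MO1 libraries. For each library, the genes (those at an unadjusted p under 0.05) and the axis came from a fit of the other 7. Control replicates 2, 3 and 4 were at 0.0173, -0.0210 and 0.0898. Control replicate 1 was at 0.686. MO1 replicates 1, 2, 3 and 4 were at 1.18, 0.670, 0.468 and 0.690. The value of control replicate 1 was thus close to those of MO1 replicates 2 and 4 and above that of MO1 replicate 3, the lowest of its group. A library left out helps to set neither end, so the axes of 2 libraries differ and their values are not strictly comparable. Control replicate 1 pulled the 0 of every MO1 axis toward MO1, which lowers the value of MO1 replicate 3. MO1 replicate 3 pulled the 1 of every control axis toward the controls, which raises the value of control replicate 1. A position is not the distance of a library from the controls. The median absolute log2 difference from the control mean was 0.193, 0.180, 0.129 and 0.224 in MO1 replicates 1, 2, 3 and 4. At a CPM of 100 or more it was 0.161, 0.154, 0.0595 and 0.234. By this measure MO1 replicate 4 lay farthest from the controls.

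The positions of both libraries moved with expression level, in opposite directions. Control replicate 1 was at 0.595 on genes under a CPM of 1 and at 0.605, 0.740, 0.867 and 0.921 on the 4 levels above. MO1 replicate 3 was at 0.515 under a CPM of 1 and at 0.541, 0.466, 0.284 and 0.116 on the levels above. On abundant genes each thus stood almost at the mean of the other group. Under a CPM of 1 each stood about midway, but genes that pass the threshold by noise place any library near the middle. At that level 7.52% of genes were under this p with all 8 libraries, and control replicates 2, 3 and 4 were at 0.216, 0.274 and 0.281. How far the choice of genes set the midway place and the change with level was not tested. Control replicate 3 also moved, from 0.274 to -0.370, and MO1 replicate 4 was at 0.454 under a CPM of 1, at 0.818 at 1 to 5 and at 0.337 at 100 or more. MO1 replicate 1 kept the highest position of all libraries at every level, 0.954 to 1.32. An axis held at most 203 genes at the lowest level and 140 to 868 at the highest.

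**Figure D4:**
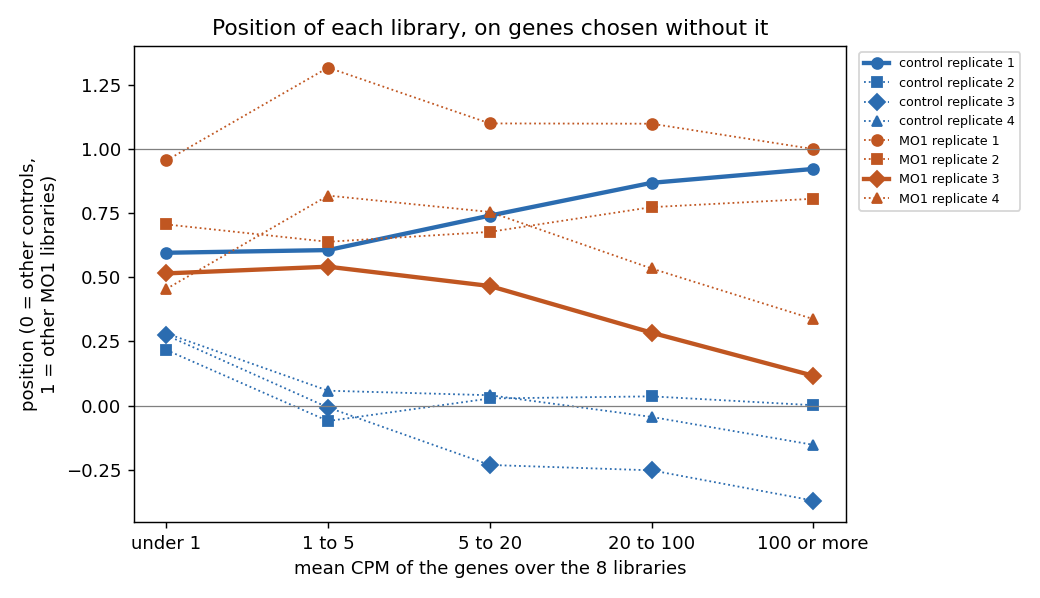
Position of each library (vertical axis; 0 marks the remaining controls, 1 the remaining MO1 libraries) by mean CPM of the genes (horizontal axis), on genes chosen without that library. Thick lines mark control replicate 1, which goes from 0.595 to 0.921, and MO1 replicate 3, which goes from 0.515 to 0.116.

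Size and direction of the change altered these positions less for control replicate 1 than for some other libraries. On genes of at least a 2-fold change control replicate 1 was at 0.634, and on genes under that it was at 0.767. MO1 replicate 3 was at 0.540 on genes of at least a 2-fold change and at 0.362 on the others. On genes higher with MO1, control replicate 1 was at 0.645 and MO1 replicate 3 at 0.509, and on genes lower with MO1 they were at 0.769 and 0.379. MO1 replicate 4 was at 1.05 on genes higher with MO1 and at 0.249 on genes lower with MO1. Controls moved by direction too: control replicates 2 and 4 were at -0.0974 and -0.0535 on genes higher with MO1 and at 0.257 and 0.340 on genes lower with MO1, the latter both above MO1 replicate 4. MO1 replicate 2 was at 0.677 and 0.651.

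Gene by gene, the groups did not overlap in 1740 genes (6.65%), with all 4 MO1 libraries above all 4 controls in 944 (3.61%) and below them in 796 (3.04%). From the lowest level of CPM to the highest, the share without overlap was 3.88%, 6.66%, 7.24%, 7.28% and 5.03%. It thus did not rise throughout with expression level. Leaving out a library can only add to the number of genes without overlap, so the additions are to be read against each other. Of the 26156 genes tested, leaving out control replicate 1 separated another 4359, 2210 higher and 2149 lower. For 2950 of these no other single library did so. Leaving out MO1 replicate 3 separated another 2694, of which 1553 were resolved by no other single library. For the other 3 controls these additions were 316 to 566 genes, and for the other 3 MO1 libraries 542 to 1010. At a CPM of 100 or more, leaving out control replicate 1 separated another 32.1% of 1928 genes and leaving out MO1 replicate 3 another 23.0%, against 0.674% to 2.85% for the other 6 libraries. Under a CPM of 1 the additions were 4.87% and 3.13%, against 2.14% to 5.27% for the other 6, so at that level neither library stood apart in this count.

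**Figure D5:**
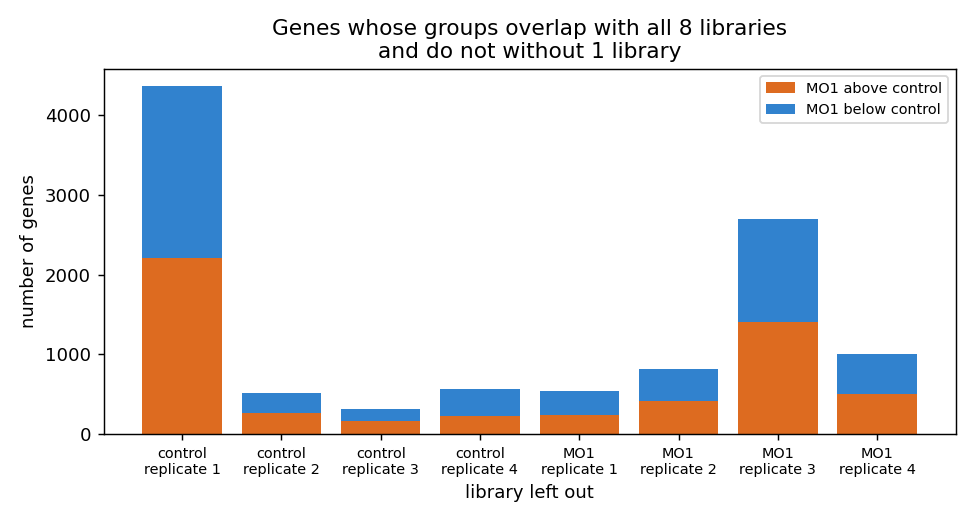
Number of genes (vertical axis, from 0) whose groups overlap with all 8 libraries but not when the library on the horizontal axis is left out, split by direction. Control replicate 1 stands at 4359 and MO1 replicate 3 at 2694, and the other 6 libraries at 316 to 1010.

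The test across all genes moved in the same way. Without control replicate 1 the edgeR calls were 597 (2.25%), of which 255 were higher and 342 lower, and the genes at an unadjusted p under 0.05 were 6818 (25.8%). Without MO1 replicate 3 it called 3 (0.0114%), with 5928 (22.5%) at the unadjusted p. Without both it called 4766 (18.2%), 2269 higher and 2497 lower, with 8868 (33.8%) at the unadjusted p. The 2 libraries are those most like the other group, so leaving them out widens the difference by construction, and these counts are no separate support for it. Of the 597 genes called without control replicate 1, 576 had an unadjusted p under 0.05 with all 8 libraries, and of the 4766 called without both, 2470 had. Leaving out any other control lowered the number at the unadjusted p to 2636, 2231 and 2495 for replicates 2, 3 and 4 in turn, with 0 calls each. Leaving out MO1 replicate 1, 2 or 4 lowered it too, to 2690, 2973 and 3138, with 0, 1 and 0 calls.

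The calls without both libraries were concentrated among abundant genes. At a CPM of 100 or more 882 of 1928 genes were called, 514 higher and 368 lower, and at 20 to 100 CPM 2482 of 8631, whereas 68 of 2600 were called under a CPM of 1. Of the 10 most abundant IDs 8 were called, all higher, and of the 100 most abundant 60 were. Without both, over the genes tested in all 4 fits, the median standard error was 0.461 under a CPM of 1 and 0.0702 at 100 or more. The median absolute log2 fold change was 0.384 and 0.220 at these levels, below the standard error at the lowest and above it at the highest. An absolute fold change grows with its own error, so these medians do not show at which level the change was larger. At a CPM of 100 or more the median SD of log2 CPM was 0.113 over the 4 controls and 0.0643 without control replicate 1. With MO1 it was 0.130 over 4 libraries and 0.0898 without replicate 3. The median absolute log2 fold change at this level was 0.179 without control replicate 1, 0.176 without MO1 replicate 3 and 0.220 without both, over the genes tested in all 4 fits. The cause of the place of these 2 libraries, an exchange of their labels included, was not tested.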

How the data were processed

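The 8 libraries hold raw counts deposited by the authors, which are whole numbers for each gene ID, in a file per library. Reads were trimmed, per the file headers, and, per the submitters' processing notes, featureCounts 2.0.1 made the counts. Libraries were stranded, per the labels' protocols. Not given in the sources used here were the aligner, genome build, annotation and strand setting, so reads of overlapping genes and of near-identical copies, such as homeologs, may be credited to the wrong ID. Of the 44478 IDs, 0 matched the RefSeq table at hand (Xenopus_laevis_v10.1) by exact comparison.

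Genes were kept by filterByExpr (26156, with at least 99.87% of counts) and scaled by TMM. Control and MO1 libraries only were fitted in edgeR 4.0.16 (R 4.3.3, quasi-likelihood, robust, 6 residual degrees of freedom, two-sided). A common coefficient of biological variation of 0.159 was estimated. The Benjamini-Hochberg adjustment ran over the 26156 genes. Standard errors were derived from the fold changes and F statistics. Named IDs are the 2 per direction with the smallest p at a mean CPM of at least 2. The script was tested on simulated data. Pairs of libraries gave a chi-square of 5.09 to 36.5 per degree of freedom over genes, above sampling noise. Alternatives included DESeq2 1.42.0 and limma 3.58.1. The comparison, levels and lists were chosen with earlier results of these data known.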

Additional observations from a re-analysis of the deposited data

Results flagged for a closer look

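Of 24 sets of 4 libraries that were checked (12 measures in each group), 2 held a library far from the rest. Chance at 1 in 20 would give 1.2 if the sets were independent. They are measures of the same 8 libraries, so this number cannot decide whether either value is due to chance. The 10 most abundant IDs of MO1 replicate 3 held 3.92% of its counts, while MO1 replicates 1, 2 and 4 had 4.37% to 4.45%. Control replicate 1 had a position of 0.686 between the other controls and the MO1 libraries, against -0.0210 to 0.0898 for the other controls. Whether these values have a common cause was not tested.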

How the results depend on the processing

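The alternatives were set with earlier results known, and the positions by direction and by size of the change were added after seeing the data. Against 1 call as reported, edgeR gave 32 with no low-count filter, DESeq2 527 and limma-voom 0. With library quality weights limma-voom gave 382. The lowest weights were 0.540 for control replicate 1, 0.618 for MO1 replicate 3 and 0.654 for MO1 replicate 4. The other weights were 1.02 to 2.15. With all 12 libraries in the fit edgeR gave 0, and without control replicate 1 and MO1 replicate 3 together it gave 4766. DESeq2 size factors, a stricter filter and a minimum fold change of 1.2 gave 1 each. With 1 library left out the calls ran from 0 to 597. The genes at an unadjusted p under 0.05 (4019 as reported) were 7414 with quality weights, 8868 without both libraries and 2231 to 6818 with 1 left out. A replicate block by number gave 116 calls, 81 higher and 35 lower and all 4 named IDs among them, with 3886 genes at the unadjusted p. The sources used here do not say whether libraries of the same number share an origin. Their deviations from the group means correlated by over 0.1 in 2 of the 4 pairs (-0.364 to 0.373). A library's best correlation was with its own number in 3 of 8. These values cannot decide whether the libraries are paired. The median absolute log2 fold change over all genes (0.146) was 0.195 without a filter and 0.216 without both libraries. Under a CPM of 1 (0.311) it was 0.666 without a filter, 0.232 with the stricter filter and 0.397 without both libraries. Without both it was 0.277, 0.194, 0.188 and 0.220 at the 4 levels above. With 1 library left out it ran from 0.13 to 0.186 over all genes and from 0.307 to 0.374, 0.197 to 0.254, 0.117 to 0.167, 0.101 to 0.156 and 0.109 to 0.179 at the 5 levels in turn. At a CPM of 100 or more the positions of control replicate 3, MO1 replicate 3 and MO1 replicate 4 were -0.370, 0.116 and 0.337, and MO1 replicate 4 was at 1.05 and 0.249 on genes higher and lower with MO1. The other positions moved by less than 1 SD of their group. That SD was 0.332 for the controls, where it includes control replicate 1 at 0.686, and 0.301 for MO1. Control replicates 2 and 4 thus counted as unmoved, though they went from 0.0173 and 0.0898 to 0.257 and 0.340 on genes lower with MO1. What caused these changes was not tested.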
